A study of Mus musculus with 24 samples.

Results

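Transcript levels in the brain of 3 wild-type (WT) mice were compared with those in the liver, heart and skeletal muscle of the same mice. Each tissue of each mouse was hybridised to 1 array, so the comparison used 12 WT arrays, of which the 3 brain arrays are the subject here, out of 24 arrays in the whole series. The other 12 arrays came from 3 mice with a Rap1 knockin (KI) allele, in which an isoleucine of RAP1, a telomere protein, is replaced by arginine. They served as a repeat in other animals and in a test of genotype. They also entered the choice of 1 probe per gene and some alternative settings. The series was made to study that allele, and the contrast between tissues is described here for its own sake. All mice were female and came from a line made with CRISPR/Cas9 and crossed back to C57BL6 mice. WT mice A and B were 15 months old and WT mouse C was 14 months old. The labels call the tissue brain and name no region, and RNA of all brain cell types was measured together, so fewer cells of a type and less RNA per cell cannot be told apart.

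Brain tissue is made of neurons, which signal through synapses, and of glia. Astrocytes take up transmitter and potassium, oligodendrocytes wrap axons in myelin, and microglia are the resident immune cells. The choroid plexus makes cerebrospinal fluid, and the endothelium of brain vessels forms a barrier that carries nutrients through dedicated transporters. Neurons and glia use mainly glucose as fuel, whereas heart, muscle and liver oxidise fatty acids and branched-chain amino acids to a large extent.

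Levels are given as log2 of the signal minus the 75th percentile of the array, so a level of 0 equals that percentile and a difference of 1 is a 2-fold difference. Levels of different genes come from different probes and are not compared with each other. A probe counted as detected on an array where the scanner software marked it as well above background. The 75th percentile lay at a signal of 1316 to 2198 on the brain arrays, against 467.8 to 1136 in liver, 740.5 to 972.1 in heart and 356.1 to 512 in muscle, and 60.9% to 68.4% of probes were detected in brain against 51.7% to 52.8% in muscle. Across genes, brain arrays correlated with each other at 0.984 to 0.99, with heart at 0.685 to 0.693, with muscle at 0.675 to 0.687 and with liver at 0.509 to 0.533. All liver arrays and the brain of mouse A were on slide 1, the brains of mice B and C and the hearts of mice A and B on slide 2, and the heart of mouse C and all muscles on slide 3. Brain and liver RNA was extracted with one kit and heart and muscle RNA with another, so kit and tissue cannot be told apart for the latter pair.

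The brain label was checked with Gabra6, a GABA receptor subunit of cerebellar granule cells, and Gfap, the intermediate filament of astrocytes. Gabra6 stood at 1.44, 2.91 and 2.17 in the brains of mice A, B and C, and at -7.80 to -5.82 on the other 9 arrays, none of which detected it. It was at least 99-fold higher in brain than in each other tissue (limma, largest of 3 adjusted p = 6.42e-08). Gfap stood at 2.04, 3.60 and 1.71 in brain and at -6.39 to -4.35 elsewhere, where 2 liver arrays detected it. It was at least 120-fold higher in brain (limma, largest adjusted p = 1.04e-07). Both groups of values are far apart, and the brain of mouse B was the highest of the 3 for both genes. Neither gene was detected on all 3 arrays of another tissue. Both thus entered the test through brain alone, which set their direction. Terf2ip, which encodes RAP1, was measured at 1.19, 1.66 and 1.36 in brain and at 0.67 to 1.19 elsewhere, and was not called. Transcripts of other tissues were low in the WT brains but not always absent. Alb, the hepatocyte albumin gene, was not detected in brain A at -6.93 and stood at -0.80 and -0.62 in brains B and C, against a mean of 9.74 in liver, and Apoa1 and Fga were not detected in any WT brain. Of 17 hepatocyte markers tested, 8 were detected on all 3 WT brain arrays and 2 on none of them. The summed level of the 17 markers was 6.61 to 6.74 in brain, 12.54 to 13.45 in liver, 4.6 to 4.9 in heart and 5.13 to 6.18 in muscle. In brains A, B and C the sum was 6.64, 6.61 and 6.74 and did not follow Alb. It is therefore not read as an amount of hepatocyte RNA in brain. The pituitary hormone genes Prl, Gh and Cga did not pass the filter.

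Of 21368 genes with a symbol, 17098 were detected on all 3 arrays of at least 1 WT tissue and were tested. The number detected on all 3 arrays was 15864 for brain, against 14562 for heart, 13701 for liver and 13312 for muscle, and 1432 genes entered the test through brain alone. A gene was called higher in brain when its mean exceeded that of liver, of heart and of muscle by at least 1 log2 with an adjusted p under 0.05 in all 3 contrasts, and lower by the mirror rule. By this rule 2707 genes (15.8%) were higher in brain than in each of the 3 tissues and 2271 (13.3%) were lower. Against liver alone, 5010 genes (29.3%) were higher and 5492 (32.1%) lower in brain. Against heart alone, 4190 (24.5%) were higher and 5053 (29.6%) lower, and against muscle alone 4521 (26.4%) were higher and 5518 (32.3%) lower. Genes higher in brain made up 54.4% of the calls against all 3 tissues, and 66.2% after quantile normalization, which gave 3073 higher and 1569 lower calls. Quantile normalization moved the median difference over all genes from -0.20 to 0.09 against liver, from -0.22 to 0.00 against heart and from -0.28 to 0.05 against muscle. Median scaling gave 61.2% and the table deposited by the authors 62.6% higher genes among the calls. The share fell to 49.1% with normexp background correction and to 47.4% without the filter on dim probes.

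The higher genes stood out by larger margins than the lower ones. The fold over the nearest of the 3 other tissues had a median of 7.70 with quartiles of 3.44 and 30 among the higher genes, and a median of 2.92 with quartiles of 2.34 and 4.38 among the lower genes. More than 8-fold separated brain from the nearest tissue for 1333 higher and 196 lower genes, and more than 32-fold for 652 higher and 31 lower genes. These summaries use measured differences, also where a side was not detected, and are not bounds. Of the higher genes, 596 were detected on no array of another tissue, and 1054 passed the filter only through brain, so that their direction was set by the filter. Of the lower genes, 276 were detected in no brain. For 189 (8.3% of the lower calls) brain and at least 1 other tissue were both undetected. No fold between these is given for named genes. The nearest tissue was muscle for 1200, heart for 977 and liver for 530 of the higher genes. Within slide 1, where brain A lay beside the livers, 2675 of the 2707 higher and 2170 of the 2271 lower genes differed from liver by at least 1 log2 in the called direction. Within slide 2, where 2 brains lay beside 2 hearts, 2682 higher and 2221 lower genes did so against heart. These counts reuse arrays that made the calls, so they cannot separate slide from tissue. No brain shared a slide with a muscle array, so the muscle contrast has no such count.

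By the measured difference from the nearest tissue, the gene with the largest margin was Slc32a1, the vesicular transporter that loads GABA and glycine into synaptic vesicles. It stood at 6.24, 5.94 and 6.32 in the brains of mice A, B and C. It stood at -7.45, -6.30 and -4.82 in liver, at -7.80, -7.10 and -5.40 in heart and at -6.23, -3.93 and -6.04 in muscle, where 1 liver array detected it. The brain values lay close together and the gene was at least 1550-fold higher in brain than in each other tissue (limma, largest adjusted p = 3e-07). A second probe of Slc32a1 was also higher in brain, by 2.12 over the nearest tissue. Vgf, a neurotrophin-induced granule protein of neurons, stood at 6.21, 5.67 and 6.04 in brain and at -7.09 to -4.24 elsewhere. Sst, the peptide hormone somatostatin made by interneurons, stood at 5.56, 5.30 and 5.26 in brain and at -6.81 to -5.74 elsewhere. Neither Vgf nor Sst was detected on any of the 9 other arrays, and they were at least 1380-fold and at least 908-fold higher in brain. Nefl, the light neurofilament of axons, stood at 5.69, 5.80 and 5.67 in brain and at -7.92 to -5.31 elsewhere and was at least 1160-fold higher. Vsnl1, a neuronal calcium sensor, was at least 717-fold higher and had levels of 4.82, 5.26 and 5.01 in brain.

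The next ranks held glial and matrix genes beside neuronal ones. Mlc1, a membrane protein of astrocyte endfeet, had levels of 5.56, 5.41 and 5.53 in brain, was detected nowhere else and was at least 992-fold higher. Bcan, the brain-specific proteoglycan brevican, had levels of 5.91, 5.40 and 5.89 in brain, was detected on 1 heart array elsewhere and was at least 1110-fold higher. Its second probe was higher in brain by 8.91. Gng3, a neuronal G protein gamma subunit, was at least 1230-fold higher and Cplx1, the complexin that clamps vesicle fusion, at least 1870-fold. Scg2, a granin of dense-core vesicles, was at least 838-fold higher, as was the neuronal repressor Scrt1. Nsg2, a neuronal endosomal protein, was 1763-fold higher than in muscle, where 1 array detected it. None of these 12 genes was detected on all 3 arrays of another tissue, so all of them belong to the 1054 genes that passed the filter only through brain and whose direction the filter set.

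**Figure D1:**
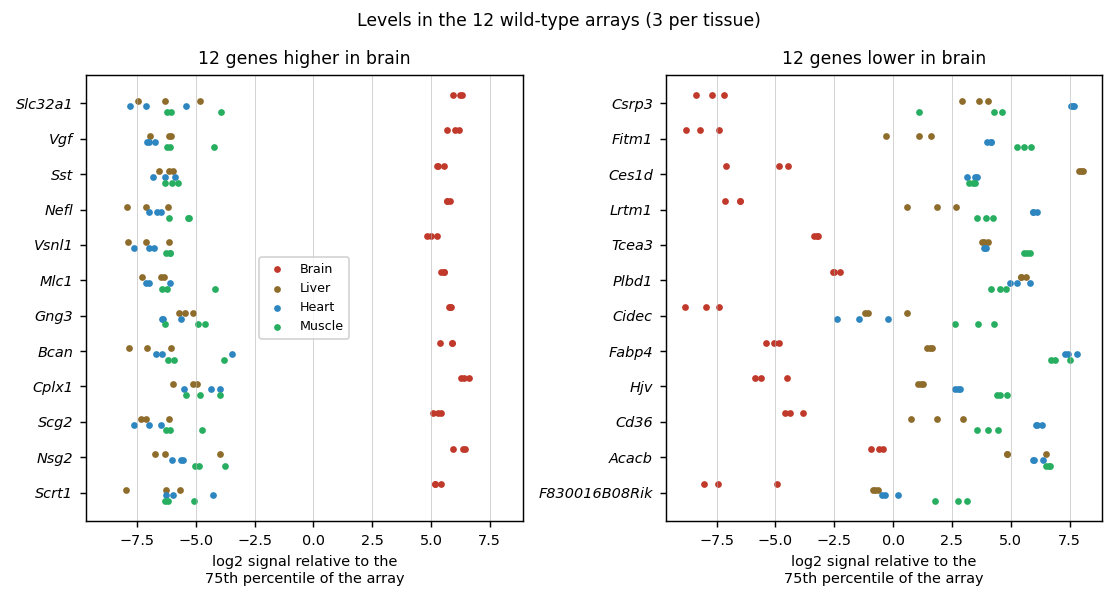
Levels of the 12 genes with the largest margins above (left) and below (right) all 3 other tissues, in log2 units above the 75th percentile of the array. Each point is 1 of the 12 WT arrays, coloured by tissue. The brain points of Slc32a1 lie between 5.94 and 6.32 while the highest other array is at -3.93, and the brain points of Csrp3 lie at or below -7.20 while the lowest other array is at 1.11.

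Genes that mark neurons in general were called almost throughout. The counts for this and the later lists are descriptions, to be read beside 15.8% higher and 13.3% lower over all genes tested. The lists include genes that passed the filter only through brain, which set their direction, among them Nefl, Nefm and Elavl3. Their number per list is not given. Of 18 pan-neuronal genes, 17 were higher in brain, against 15.8% of all genes tested, and the median over the list of the middle of a gene's 3 differences was 7.69, against -0.23 over all genes. Besides Nefl, the leading members were Stmn3, a tubulin-binding stathmin, which was 589-fold higher than in muscle, Nefm, the medium neurofilament, at least 216-fold, and Elavl3, a neuronal RNA-binding protein, at least 440-fold, with 1 muscle array missing for that probe. Rbfox3, the splicing regulator known as the nuclear marker NeuN, stood at 5.57, 5.35 and 5.90 in brain and was 111-fold higher than in liver. Map2 of dendrites stood at 4.05, 3.85 and 4.09 and was 80.8-fold higher than in heart. Tubb3, the neuronal beta tubulin, stood at 4.62, 4.58 and 4.51 and was 128-fold higher than in heart. The exception was Snap25, a membrane fusion protein of the synapse, whose only probe read 6.76, 6.65 and 6.74 in brain but also up to 7.03 in heart and 5.88 to 6.48 in muscle. The brain and heart values overlapped and Snap25 was not called, except after quantile normalization, where it was higher. The specificity of this single probe could not be checked, so its heart and muscle values may not be those of the Snap25 transcript.

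At the synapse, 22 of 28 genes of vesicles and release machinery were higher in brain and none was lower. Bsn, the active zone scaffold bassoon, stood at 4.15, 4.30 and 4.13 in brain, was detected nowhere else and was at least 401-fold higher. Syt4, a synaptotagmin, was at least 127-fold higher. Syn1, which tethers vesicles to the cytoskeleton, was 353-fold higher than in heart, where all 3 arrays detected it. On the receiving side, 18 of 25 scaffold and adhesion genes were higher and none was lower. Icam5, an adhesion protein of forebrain dendrites, was 484-fold higher than in muscle. The scaffold Dlgap3 was 222-fold higher than in muscle, and the adhesion proteins Lrrtm2 and Nlgn1 were at least 96.2-fold and at least 59.8-fold higher. The median of the middle difference was 5.33 in the vesicle list and 5.29 in the scaffold list.

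Enzymes and carriers of transmitters were called higher for 18 of 26 genes. Gad1 and Gad2, which make GABA from glutamate, were at least 611-fold and 338-fold higher in brain, and Slc17a6, a vesicular glutamate transporter, at least 149-fold. One gene of this list was lower, Maob, a monoamine oxidase of the mitochondrial membrane. It stood at 1.75, 1.60 and 1.87 in brain and at 2.82 to 6.15 elsewhere, and was 2.63-fold lower than in muscle (limma, largest adjusted p = 1.22e-05). Among receptors for GABA and glutamate, 29 of 34 were higher and none was lower, with a median middle difference of 7.26. Gabrb1 was at least 173-fold higher and Gria1, an AMPA receptor subunit, 252-fold higher than in muscle.

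Sodium and calcium channels were divided, with 15 of 29 higher and 2 lower, the latter below the 13.3% of all genes tested. Scn1a was 407-fold higher in brain than in muscle and Scn2b 82.7-fold, and the calcium channel subunits Cacng3 and Cacng2 were at least 61.7-fold and 140-fold higher. Scn4a, the sodium channel of skeletal muscle, was lower in brain, with levels of -2.55, -1.98 and -2.29 against -1.47 to 2.07 elsewhere, but was not called with median scaling, normexp background correction or the deposited table. Under median scaling and with the deposited table, 0 of the 29 channels were lower. The chosen probe of Scn8a, a channel of nodes of Ranvier, also read lower in brain by 1.17, but both other probes of that gene read higher, by 2.91 and 2.17, and with the mean of its probes Scn8a was called higher.

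Scn8a belongs to a set of genes whose probes disagreed. A gene with several probes was represented by its brightest one, averaged across all 24 arrays. Of the 939 other probes of higher genes, 754 (80.3%) were also higher in brain than in all 3 tissues and 72 were lower than in all 3. Of the 863 other probes of lower genes, 737 (85.4%) were lower throughout and 35 higher. Of 642 listed genes tested, 248 were not called, and 77 of these had further probes, of which 22 genes had one that was at least 1 log2 higher in brain than in each tissue and 5 had one that was at least 1 log2 lower. Examples are Cplx2 at 6.14, Rims1 at 5.34, Syngr1 at 5.59, Gabra2 at 6.63 and Grm5 at 8.89. With the mean of all probes per gene, 25 of 28 vesicle genes and 32 of 34 receptors were higher. Camk2a, Camk2b and Mapt, which are also textbook neuronal genes, read nearly as high in muscle as in brain, with smallest differences of 0.23, 0.29 and 0.78, and they were not called. Camk2b was called higher after quantile normalization, and Mapt after quantile normalization or median scaling.

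Neuropeptides and proteins of dense-core vesicles were higher for 26 of 30 genes, with a median middle difference of 7.53. Cck, the peptide cholecystokinin, had levels of 7.26, 6.77 and 7.56 in brain and was 1260-fold higher than in muscle, where 2 arrays detected it. Chgb and Chga, granins that pack the vesicles, were 911-fold higher than in heart and 493-fold higher than in muscle. Npy was at least 195-fold and Cartpt, the precursor of the CART peptide, at least 72-fold higher, and Penk, the enkephalin precursor, was 16.1-fold higher than in heart. Peptides of small hypothalamic neuron groups were also called. Pmch, the melanin-concentrating hormone, was at least 120-fold higher, Trh at least 53-fold, and Hcrt, the orexin precursor, 76.9-fold. They varied between brains, with 3.82, 2.25 and 4.70 for Hcrt in brains A, B and C.

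Promoters of 5 of the 25 genes of this list with a promoter sequence held the cAMP response element TGACGTCA (a palindrome, so both strands read alike) between 250 bases before and 50 after the start, namely Sst, Scg2, Chgb, Cartpt and Pcsk1. Over the 1976 higher protein-coding genes with a promoter sequence the share was 3.29%, against 2.01% of 1740 lower genes and 2.84% of 13008 genes tested, so the called genes as a whole were near the background. The left part of the RE1 site, to which the neuronal repressor REST binds, was searched as TTCAGCACC or its reverse GGTGCTGAA. It occurred in 17 higher genes (0.86%), 5 lower genes (0.287%) and 52 of all genes tested (0.4%). A TATA box, searched as TATAAA or TTTATA, occurred in 8.91% of higher, 11.1% of lower and 9.18% of all genes. The 250 bases before the start are shown for Sst, Scg2, Chgb and Cartpt and for 2 neuronal genes with the RE1 part. The peptide genes shown were chosen because they hold the element, and other leading genes of the list, such as Cck, are not shown. The sequence is that of RefSeq in GRCm38.p6, with the motifs in capitals. A match is a description of the letters and no binding was measured. In Sst, at chr16:23890845-23891094 on the minus strand, the element begins 48 bases before the start. In Scg2, at chr1:79440027-79440276 on the minus strand, it begins 68 bases before it, and in Chgb, at chr2:132781392-132781641 on the plus strand, 72 bases before it. In Cartpt, at chr13:99900684-99900933 on the minus strand, it begins 112 bases before the start. Syn1, at chrX:20920919-20921168 on the minus strand, holds the RE1 part 232 bases and the cAMP element 159 bases before the start, and Dner, at chr1:84696222-84696471 on the minus strand, holds the RE1 part 150 bases before it. Dner, a transmembrane Notch ligand of neurons, was at least 343-fold higher in brain.
Sst: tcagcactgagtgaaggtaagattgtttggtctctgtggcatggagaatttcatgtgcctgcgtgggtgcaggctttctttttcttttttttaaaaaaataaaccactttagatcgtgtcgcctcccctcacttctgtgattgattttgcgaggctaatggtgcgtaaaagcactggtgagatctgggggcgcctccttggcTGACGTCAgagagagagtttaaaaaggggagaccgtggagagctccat
Scg2: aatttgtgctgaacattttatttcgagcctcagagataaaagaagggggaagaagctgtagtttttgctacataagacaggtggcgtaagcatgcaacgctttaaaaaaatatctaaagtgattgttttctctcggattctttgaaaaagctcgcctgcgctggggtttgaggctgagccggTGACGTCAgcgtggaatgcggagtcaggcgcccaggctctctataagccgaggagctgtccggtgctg
Chgb: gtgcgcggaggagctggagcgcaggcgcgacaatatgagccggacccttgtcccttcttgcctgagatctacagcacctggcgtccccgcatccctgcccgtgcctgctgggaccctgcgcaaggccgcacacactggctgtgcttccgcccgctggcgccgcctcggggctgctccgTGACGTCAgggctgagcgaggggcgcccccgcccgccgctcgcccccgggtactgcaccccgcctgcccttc
Cartpt: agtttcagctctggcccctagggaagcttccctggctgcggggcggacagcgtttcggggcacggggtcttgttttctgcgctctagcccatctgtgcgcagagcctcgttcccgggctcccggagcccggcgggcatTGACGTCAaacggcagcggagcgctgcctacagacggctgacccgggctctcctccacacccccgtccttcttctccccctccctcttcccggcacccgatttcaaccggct
Syn1: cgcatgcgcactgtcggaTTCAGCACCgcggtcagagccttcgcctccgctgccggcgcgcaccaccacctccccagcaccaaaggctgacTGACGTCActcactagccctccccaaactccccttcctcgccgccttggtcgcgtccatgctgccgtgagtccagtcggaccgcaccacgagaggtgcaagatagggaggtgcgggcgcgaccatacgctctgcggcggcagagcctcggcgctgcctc
Dner: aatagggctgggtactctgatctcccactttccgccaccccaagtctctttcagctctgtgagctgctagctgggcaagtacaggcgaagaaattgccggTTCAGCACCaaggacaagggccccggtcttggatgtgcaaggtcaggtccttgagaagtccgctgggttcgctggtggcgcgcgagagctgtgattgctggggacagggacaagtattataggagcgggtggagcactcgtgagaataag

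Cytoskeletal genes of axons followed the neuronal lists. Of 30 tubulins, microtubule proteins and kinesins, 24 were higher in brain and none was lower. Kif5a, a kinesin heavy chain that carries cargo along axons, stood at 7.70, 7.31 and 7.91 in brain and was 410-fold higher than in heart. Dync1i1, a dynein intermediate chain, was 451-fold higher than in muscle. Crmp1, a mediator of axon guidance signals, was 186-fold higher than in heart. Of 24 genes of the brain extracellular matrix and of axonal adhesion, 18 were higher, led after Bcan by the proteoglycan Cspg5 at 363-fold over heart, Nrcam at 194-fold over muscle and Cntn1 at 116-fold over muscle. Neuronal RNA-binding and splicing proteins were less complete, with 10 of 18 higher, among them Elavl2 at least 121-fold and Celf5 at 130-fold over muscle. Rbfox1 was not called and its chosen probe was lower in brain than in muscle by 1.78.

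Glial lists were called higher in unequal measure. Of 20 oligodendrocyte and myelin genes, 16 were higher. Cldn11, a tight junction protein of myelin, stood at 3.91, 4.21 and 4.02 in brain and was 514-fold higher than in heart. Gpr37 was at least 180-fold higher, Mag, a myelin adhesion protein, 112-fold higher than in muscle, Mbp 8.62-fold higher than in heart and Mog 3.38-fold higher than in liver. Ermn, a myelin cytoskeletal gene, was called lower from its chosen probe, with brain levels of 4.93, 2.63 and 3.99, while its other probe was higher in brain by 3.69. With the mean of both probes, Ermn was not called. Of 10 genes of oligodendrocyte precursors, 6 were higher, led by Gpr17 at least 134-fold, and 4 with normexp background correction.

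Of 19 astrocyte markers, 11 were higher, with Gjb6, a connexin, at least 415-fold and Acsbg1, an acyl-CoA synthetase, 219-fold over muscle. Others are shared with the compared tissues. Aldh1l1, an enzyme of folate metabolism, stood at 3.72, 3.59 and 3.97 in brain and at 8.20 to 9.07 in liver, and Aqp4, the water channel of astrocytes, differed from muscle by 0.59. Microglial markers were called least among the glial lists, with 6 of 20 higher and a median middle difference of 0.69. Cx3cr1 was 9.76-fold, P2ry12 5.74-fold, Trem2 5.18-fold and Tmem119 2.81-fold higher than in heart. With slide as a block, 3 of the 20 were higher and Tmem119 was not called.

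Vessels were divided between barrier genes and general endothelial genes. Of 15 blood-brain barrier genes, 5 were higher and 1 was lower, against 15.8% and 13.3% of all genes tested, so lower calls were below the background share. Slc7a5, the carrier of large neutral amino acids, was 19.1-fold and Slco1c1, a thyroxine carrier, 14.5-fold higher than in heart, and Lef1, a factor of Wnt signalling, 12.8-fold higher than in muscle. Abcg2, an efflux pump also made outside the brain, was 2.55-fold lower than in heart. Of 15 general endothelial genes, none was higher and 6 were lower. Kdr, a VEGF receptor, stood at 0.43, -0.25 and -0.08 in brain and at 2.56 to 4.81 elsewhere and was 7.31-fold lower than in muscle, although its other probe was nearly level with the nearest tissue at -0.04. Robo4 was 4.23-fold and Cdh5, the endothelial cadherin, 3.82-fold lower than in liver. Choroid plexus and ependymal markers were higher for 11 of 15 genes and lower for 2, the latter near the 13.3% of all genes tested. Kl was at least 32.4-fold and Kcne2 at least 24.8-fold higher. Ttr, a further choroid plexus marker, stood at 6.92, 7.13 and 5.52 in brain and at a mean of 8.9 in liver, and was not called. Of the 2 lower genes, Aqp1, a water channel of the choroid plexus and of many vessels, stood at -0.23, 0.57 and -0.53 in brain. It stood at 4.89 to 6.73 elsewhere, a 34.4-fold difference from liver.

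Genes that mark regions were called higher for 14 of 17 cerebellar, 14 of 18 cortical and hippocampal, 12 of 14 striatal and 13 of 21 hypothalamic, midbrain and hindbrain genes. Of 9 olfactory bulb genes 4 were higher, and all 4 were lowest in brain A. Tbr1, a transcription factor of the cortex, was at least 292-fold higher. Zic2 of the cerebellum was at least 81.3-fold higher and Slc1a6, the glutamate transporter of Purkinje cells, 316-fold. In the striatum Rgs9 was 86-fold higher than in liver and Drd1, the D1 dopamine receptor, at least 30.2-fold.

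The 3 brains differed in the levels of these region genes. Of the 14 called cerebellar genes, 13 were lowest in brain A and 13 were highest in brain B, and their mean deviation from the mean of the 3 brains was -0.43 in A, 0.50 in B and -0.07 in C. Of the 12 called striatal genes, 11 were highest in brain A and 10 were lowest in brain B, with mean deviations of 0.43, -0.50 and 0.07. Brain B was thus high in cerebellar and low in striatal genes, and brain A the reverse. Neurod1, a factor of cerebellar granule cells, stood at 0.49, 2.07 and 0.87 in A, B and C, and Gabra6 had the same order at 1.44, 2.91 and 2.17. Rgs9 stood at 4.31, 2.53 and 3.71 and Pde10a, a phosphodiesterase of striatal neurons, at 3.09, 1.72 and 2.72. Choroid plexus and ependymal genes deviated by -0.55 in brain C and by 0.42 in brain B. The pan-neuronal genes deviated by 0.12 at most and had a median SD of 0.13, against 0.50 for striatal, 0.43 for cerebellar and 0.83 for hypothalamic, midbrain and hindbrain genes. Brain A was on another slide than B and C, and the part of slide or dissection in these differences was not tested.

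**Figure D2:**
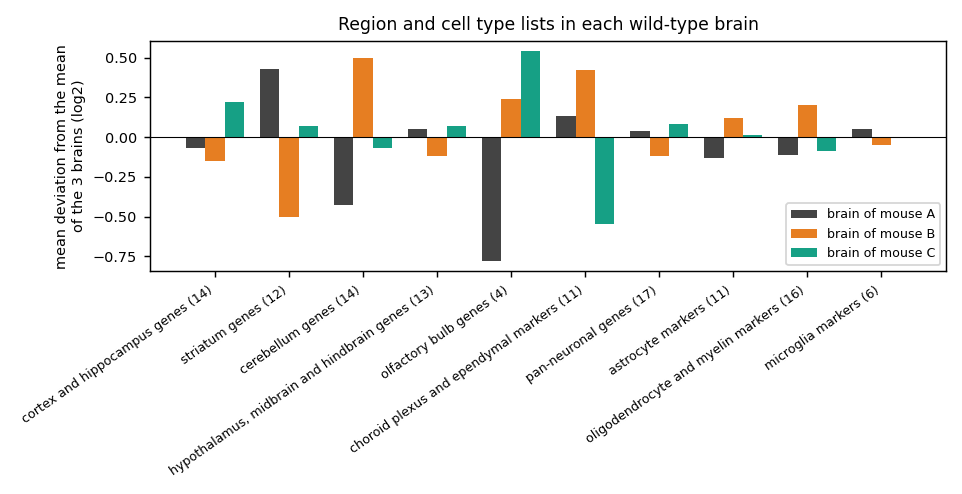
Mean deviation of the called members of region and cell type lists in the brains of WT mice A, B and C from the mean of the 3 brains, in log2, with the number of genes in parentheses. Cerebellar genes are low in A and high in B (-0.43 and 0.50), striatal genes the reverse (0.43 and -0.50), and pan-neuronal genes stay within 0.12 of 0.

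Over the 15864 genes detected in all 3 brains the median SD was 0.20, and 153 genes (0.96%) had an SD above 1. The 10 most variable genes fell into a few kinds. Omp, the marker of mature olfactory sensory neurons, stood at -2.76, 0.98 and 2.46 in brains A, B and C, and S100a5, a calcium-binding protein of the same neurons, at -2.50, 0.27 and 2.44. Ms4a15 had the same order, with -4.54, -1.12 and 0.65. The genes Hoxb5 and Hoxb3, transcription factors of the hindbrain and spinal cord, were highest in brain B, at 1.29 and -1.26, against -2.42 and -4.75 in A and -3.59 and -5.22 in C. Serpina1a and Serpina1c, hepatocyte protease inhibitors with near-identical sequences that the probes may not separate, stood at -3.74 and -3.71 in A, 0.05 and 0.10 in B, and 0.45 and 0.32 in C, the same order as Alb. The others were Gm1987, a chemokine copy, with 3.61, -2.13 and 4.16, and the less studied genes Gsdma2 and Iqcf4, both highest in brain A. None of these 10 genes was called lower in brain and only Ms4a15 was called higher.

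Among genes that were lower in brain and detected on all 9 other arrays, Csrp3, the muscle LIM protein of the sarcomere, had the largest margin. It stood at -7.71, -8.37 and -7.20 in brain, where it was not detected. It stood at 3.64, 2.92 and 4.04 in liver, at 7.54, 7.67 and 7.70 in heart and at 4.63, 1.11 and 4.28 in muscle. It was at least 701-fold lower in brain than in each tissue (limma, largest adjusted p = 2.7e-07). Fitm1, which promotes lipid droplets in muscle, was at least 121-fold lower and Lrtm1 at least 228-fold lower. Fabp4, the fatty acid carrier of fat and vessel cells, stood at -5.08, -4.85 and -5.42 in brain, at 1.46, 1.58 and 1.63 in liver, at 7.45, 7.32 and 7.83 in heart and at 7.51, 6.90 and 6.72 in muscle. Cd36, a fatty acid receptor, stood at -3.83, -4.37 and -4.61 in brain and at 0.75 to 6.34 elsewhere. Acacb, the acetyl-CoA carboxylase that controls mitochondrial fatty acid entry, stood at -0.62, -0.43 and -0.96 in brain and at 4.86 to 6.66 elsewhere. Compared with liver, Fabp4 was 102-fold, Cd36 70-fold and Acacb 67.5-fold lower in brain, and the second probe of Acacb was lower by 5.44.

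The other 6 of the 12 leading genes are known for various functions. Cidec, a lipid droplet protein of fat cells, was not detected in brain and at least 27.4-fold lower, although its second probe differed by -0.31 only. Ces1d, a carboxylesterase, was 458-fold lower than in muscle, with -7.10 in brain A and -4.86 and -4.47 in brains B and C, the brains with more Alb, whose part in these values was not tested. Tcea3, an elongation factor of transcription, was 142-fold lower than in liver and Plbd1, a phospholipase, 123-fold lower than in muscle. Hjv, the iron regulator hemojuvelin, was 91-fold lower than in liver and was detected in 2 brains. The last of the 12 was F830016B08Rik, 66.6-fold lower than in liver and detected in 1 brain.

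Fatty acid oxidation was the list with the most lower calls, 22 of 28 genes against 13.3% of all genes tested, with a median middle difference of -3.73. Cpt2, the inner carnitine palmitoyltransferase, stood at 0.80, 0.85 and 0.86 in brain and at 4.68 to 6.47 elsewhere and was 16.5-fold lower than in muscle. Acadvl, which starts the oxidation of long chains, was 13.3-fold lower than in liver. Acsl1, which activates fatty acids, was 13.1-fold lower and Acads, the dehydrogenase for short chains, 23.9-fold lower than in muscle. One member was higher, Cpt1c, the brain carnitine palmitoyltransferase of the endoplasmic reticulum, with 2.10, 2.43 and 1.98 in brain and a 29.4-fold difference from heart. Branched-chain amino acid catabolism had 15 of 20 genes lower and a median middle difference of -2.24. Bcat2, the mitochondrial aminotransferase that begins this pathway, was 6.62-fold lower than in liver and Dbt, a subunit of the dehydrogenase complex, 6.36-fold lower than in muscle. Its cytosolic counterpart Bcat1 was the single higher member, with 2.97, 3.11 and 3.24 in brain and a 134-fold difference from muscle, where 1 array detected it.

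Matrix, immune and fat genes were lower in part. Of 26 collagens and genes of interstitial matrix, 7 were lower and none was higher, with Postn 12.7-fold, Col3a1 12.3-fold and Dcn, the proteoglycan decorin, 9.79-fold lower than in liver. Of 19 antigen presentation genes, 9 were lower and none was higher. The class II genes H2-Ab1 and H2-Eb1 stood at 0.58, 0.88 and 0.39 and at 0.65, 0.85 and 0.40 in brain and were 5.26-fold and 5.11-fold lower than in muscle. Ciita and Nlrc5, regulators of antigen presentation genes, were 6.72-fold lower than in heart and 5.01-fold lower than in muscle. The other probe of Nlrc5 differed from the nearest tissue by -0.44 only. Lymphocyte and blood genes were lower for 6 of 13, but for 1 of 13 with slide as a block and 3 of 13 after quantile normalization. Of 11 fat markers 6 were lower and none was higher, and 4 were detected in no brain. The rule asks for a lower level than in each of the 3 tissues, which markers of a single tissue seldom meet. Lower were 1 of 17 hepatocyte, 2 of 15 skeletal muscle and 2 of 16 heart markers. These counts are near or below the 13.3% of all genes tested. Of 12 genes of smooth muscle and pericytes, 3 were lower, among them Abcc9, a potassium channel regulator of pericytes, 9.72-fold below liver.

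**Figure D3:**
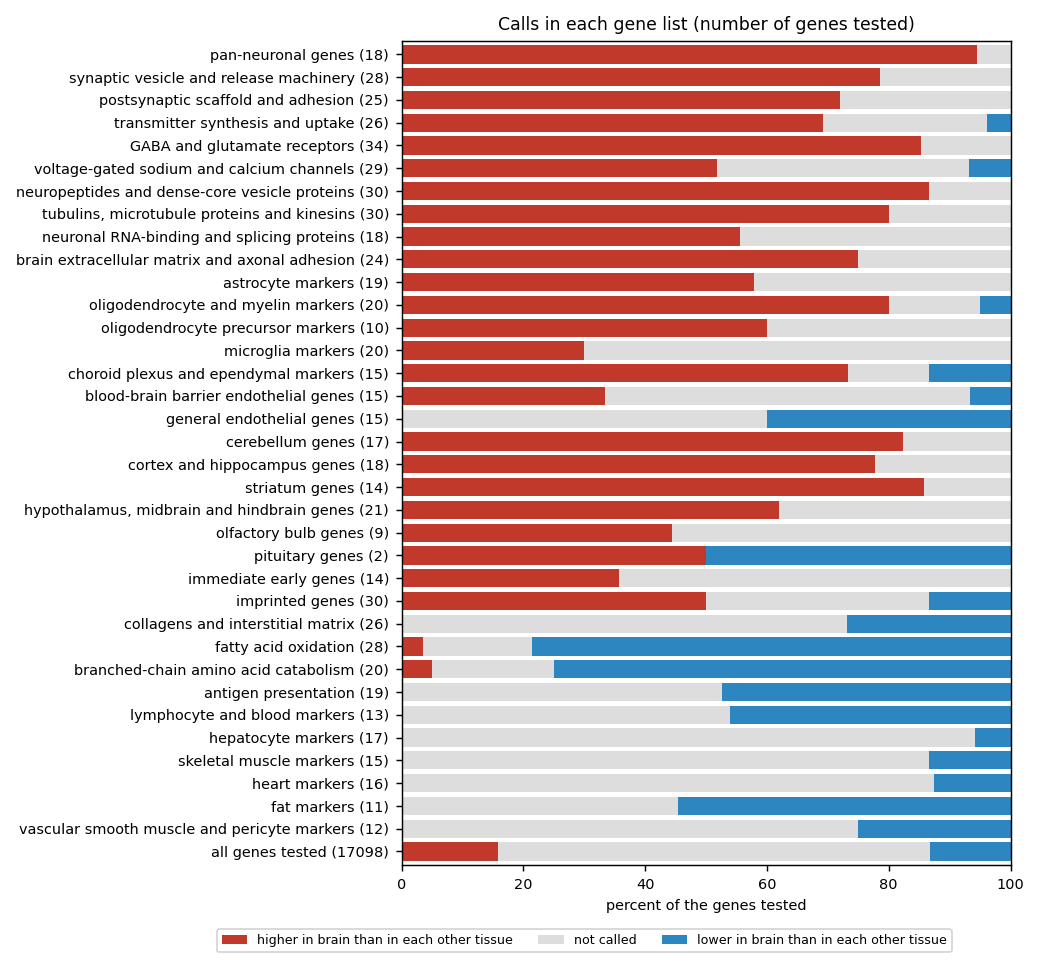
Share of the genes tested in each list that were higher in brain than in each other tissue (left, red), lower than in each (right, blue) or not called (grey), with the number tested in parentheses and all genes tested in the last bar. The pan-neuronal bar reaches 17 of 18 genes higher and the fatty acid oxidation bar 22 of 28 genes lower, against 15.8% and 13.3% of all genes. Lists were chosen with earlier results of these data known.

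Related genes went opposite ways in some families. In 28 families of paralogs with 105 members tested, 37 members (35.2%) were higher and 10 (9.5%) were lower, against 15.8% and 13.3% of all genes tested. In 19 families at least 1 member was higher, and in none of them were all members higher. By the chosen probes, in 8 of the 28 families 1 member was higher and another lower. Among creatine kinases, Ckb, the cytosolic form of brain, stood at 5.96, 6.39 and 6.15 in brain and was 21.3-fold higher than in heart. Ckm, the muscle form, was detected in neither brain nor liver and was at least 3450-fold lower in brain than in heart and at least 37800-fold lower than in muscle. Its call against all 3 tissues was lost after quantile normalization and with slide as a block. Among enolases Eno2 of neurons was 239-fold higher than in heart, while Eno3 of muscle was lower than in muscle by 9.39. Aldoc was 14.6-fold higher than in liver. Among glucose transporters, Slc2a3 of neurons was 29.9-fold and Slc2a1 of vessels and glia 2.84-fold higher than in heart. Slc2a2 of liver was called lower, but brain, heart and muscle all failed to detect it and the call was lost under 4 other scalings, and Slc2a4, the insulin-responsive form, was lower than in muscle by 8.54.

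Structural and membrane proteins showed the same division. Of 7 beta tubulins 5 were higher, Tubb4b was not called, and Tubb6, which stood at -1.49, -1.08 and -0.45 in brain, was 6.13-fold lower than in liver. Of 7 intermediate filaments, the 5 of neurons and astrocytes were higher and Des, the desmin of muscle, was lower, 3.68-fold below liver. Dnm1, the dynamin of synaptic vesicle retrieval, was 20.4-fold higher than in muscle. The widely expressed Dnm2 was lower by 1.03 at the least, and was not called under any of 4 other scalings, with slide as a block or with the mean of its probes. Of the ELAV-like proteins the 3 neuronal members were higher. Elavl1, which is made in all tissues, was 5.28-fold lower than in heart by its chosen probe. Its other probe was higher in brain by 3.02, and with the mean of its probes Elavl1 was not called. Fabp7 of glia was 8.38-fold higher than in liver, opposite to Fabp4. The synaptobrevin Vamp2 was 7.75-fold and the syntaxin Stx1a 53.4-fold higher than in heart, whereas Vamp3, Stx2, Stx3 and Stx4a were not called.

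**Figure D4:**
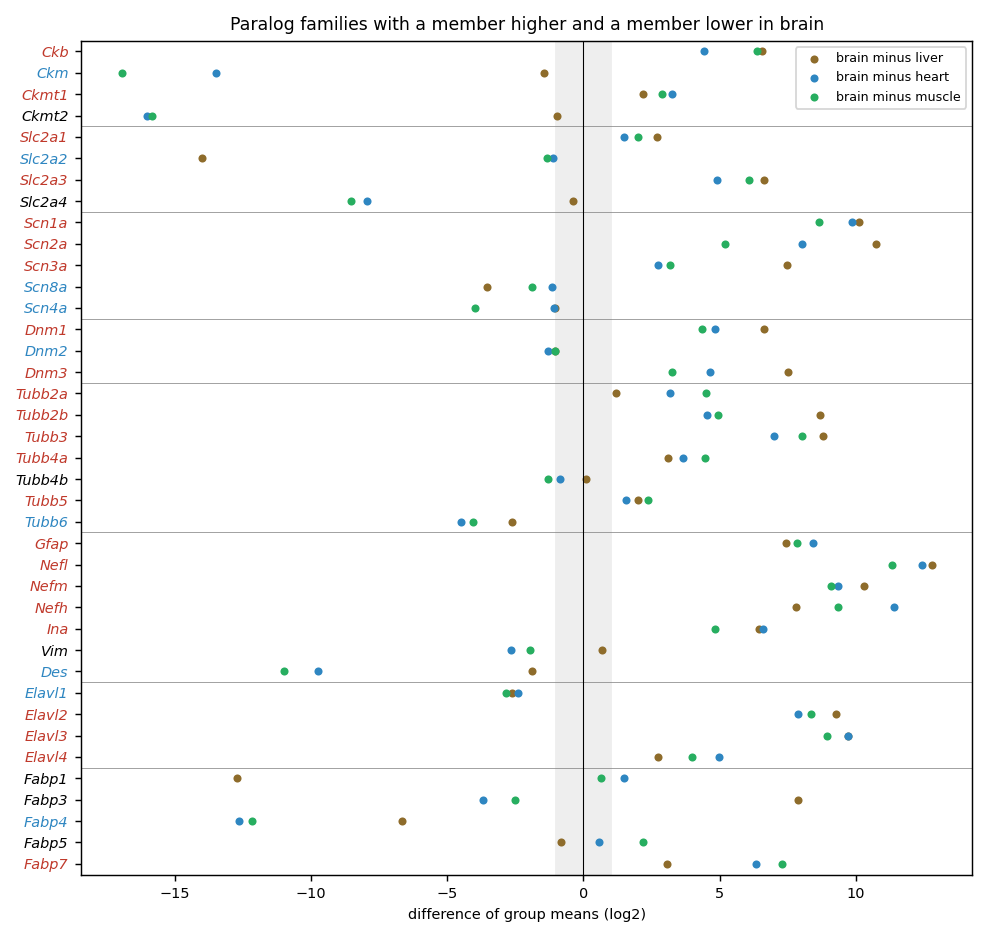
Differences between the mean of the 3 brains and the means of liver, heart and muscle (log2) in the 8 paralog families that hold a higher and a lower member. Each point is 1 contrast, the grey band marks differences under 1, and names are red where higher, blue where lower and black where not called. Points for tissues in which a gene was not detected, such as Ckm and Slc2a2 in brain, are measured differences and not bounds. Each gene is shown by its chosen probe only, and other probes of Scn8a and Elavl1 went the other way. A further 1 member that was not called is not shown.

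Imprinted genes, which are expressed from 1 parental copy, were higher for 15 of 30 and lower for 4, the latter near the 13.3% of all genes tested. Rasgrf1, an exchange factor of neurons, was at least 255-fold higher, with 1 muscle array missing for its probe, and Nap1l5 205-fold higher than in heart. Ndn, the necdin gene, was 20.1-fold higher than in heart and Zdbf2 at least 5.22-fold higher. Dcn, Commd1 and Igf2r were lower by 9.79-fold, 3.8-fold and 2.66-fold compared with liver, and H19 by 2.18-fold. The brain and liver values of H19 overlapped, and it was not called with median scaling or the deposited table, nor was Zdbf2 with normexp background correction. With slide as a block, 10 imprinted genes were higher. Immediate early genes, which respond to activity, were higher for 5 of 14, and for 3 of 14 with slide as a block. Egr4 stood at 3.11, 2.99 and 3.29 in brain and was at least 192-fold higher, Arc was 26.8-fold and Npas4 15.3-fold higher than in heart, and Egr1 was 3.01-fold higher than in muscle. The lowest brain value of Egr1, 4.09, lay under the highest muscle value, 4.15, and Egr1 was not called with slide as a block. Fos and Junb were not called.

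Genes higher in brain covered more genome than others. Among protein-coding genes the median span from first to last exon in GRCm38.p6 was 29.91 kb for 2573 higher genes, 18.38 kb for 2144 lower genes and 22.08 kb for 16325 genes tested. Spans above 100 kb were held by 25.4% of the higher genes, 7.7% of the lower genes and 13.5% of all. The share of higher genes was 13.6% among genes under 5 kb, 12% between 10 and 20 kb, 23.8% between 100 and 200 kb and 37.9% of the 905 genes over 200 kb. The share of lower genes was 15.8% in the first of these bins and 4.4% in the last. These shares are a description without a test. At the promoter, a ratio of observed to expected CpG above 0.6 was held by 56.8% of higher, 50.8% of lower and 61.1% of all genes. Of 630 long noncoding RNA genes 120 (19%) were higher and 98 (15.6%) were lower, close to the shares of protein-coding genes (15.8% and 13.1%).

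**Figure D5:**
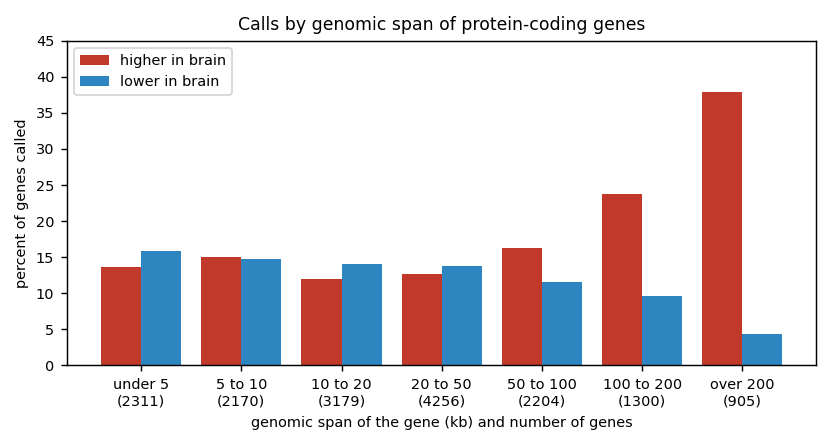
Percent of protein-coding genes called higher (red) and lower (blue) in brain by genomic span in kb, with the number of genes per bin in parentheses. The red bars reach 37.9% over 200 kb where the blue bar is at 4.4%.

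Many miRNAs lie within longer genes, and the array measured the host transcripts, not the miRNAs. Of 454 tested genes that hold a miRNA hairpin on their own strand, 60 (13.2%) were higher and 54 (11.9%) were lower in brain, against 15.8% and 13.3% of all genes tested. Hosts are given here for miRNAs that are well known in brain or elsewhere, and they were chosen after their values were seen. Mir9-3hg, the host of miR-9 at chr7:79505279-79505301 (5p arm, plus strand), stood at 1.62, 1.65 and 1.79 in brain and was at least 70.5-fold higher, with 1 heart array at -2.16 that detected it. With slide as a block it was not called. Arpp21, a neuronal phosphoprotein gene that holds miR-128 at chr9:112118644-112118664 (minus strand), stood at 4.38, 3.77 and 4.38 and was at least 338-fold higher. Astn1, a neuron migration gene with miR-488 at chr1:158505689-158505709 (plus strand), was 48.1-fold higher than in heart. Aatk, a kinase gene with miR-338 at chr11:120014781-120014802 (minus strand), was 13.6-fold higher than in muscle. In the other direction, Copz2, a coatomer subunit gene that holds miR-152 at chr11:96850439-96850459 (plus strand), stood at -0.80, -0.36 and -1.02 in brain and was 6.45-fold lower than in muscle. The RefSeq mature sequences are shown with the seed, bases 2 to 8, in capitals. No seed is shared between them.
miR-9-5p: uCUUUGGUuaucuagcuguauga
miR-9-3p: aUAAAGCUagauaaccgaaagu
miR-128-3p: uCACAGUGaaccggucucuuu
miR-488-3p: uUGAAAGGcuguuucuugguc
miR-338-3p: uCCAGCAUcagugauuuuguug
miR-152-3p: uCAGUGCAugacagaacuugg

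The 12 arrays of the KI mice gave the same comparison in other animals. They had the slide layout of the WT arrays, with all livers on slide 1 and all muscles on slide 3, and the same kit for each tissue. The repeat therefore cannot separate slide or kit from tissue. There 2604 genes (15.2%) were higher and 2074 (12.1%) were lower in brain than in each of the 3 tissues. Of the WT calls, 2460 of the higher genes were called again, which is 90.9% of the WT and 94.5% of the KI list, and 1770 of the lower genes, which is 77.9% and 85.3%. No gene was called in opposite directions. The brain of KI mouse F held liver transcripts, with Alb at 6.72 against -0.62 at most in the WT brains, and without it 2457 higher and 1811 lower genes were called again. That brain also held little cerebellar RNA, with Gabra6 at -1.98 and a mean deviation of the cerebellar genes of -2.17 from the WT mean. Of the 12 leading higher and 12 leading lower genes, all were called again in the KI arrays. The test of whether a brain difference depended on genotype called 0 genes (0%). Of the 17098 genes tested, 179 had an unadjusted p under 0.05 (limma, interaction term), a share that is itself below 0.05. The number was 178 with the mouse as a random block and 157 without the brain of KI mouse F. The lack of calls therefore does not show that genotype had no effect.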

How the data were processed

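RNA of 4 tissues from 3 WT and 3 KI mice was labelled with Cy3 and hybridised to 1-colour Agilent mouse arrays, 8 arrays on each of 3 slides. The deposited intensity of each spot is the processed signal of Feature Extraction 12.0.3.1, which the authors' scanner software corrected for background. A second deposited table, treated as a score of unstated scale, ranked features like the log signal of the same arrays and was used as an alternative.

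Control spots and outlier flags were left out, log2 signals were taken relative to the 75th percentile of each array, and spots of a probe were averaged. Of 55681 probes, 50.9% could be named through RefSeq genes of GRCm38.p6, and the probe with the highest mean stood for its gene. Genes well above background on all 3 arrays of a WT tissue were fitted with limma 3.58.1 (R 4.3.3, lmFit and eBayes) on 12 arrays, with Benjamini-Hochberg adjustment over all genes of a contrast. For named genes where one side was not detected, the fold is a bound against the lowest signal above background. Margins, their ranking and the fold summaries over all calls use the measured differences. The number of arrays limits the precision. The script was tested on simulated data.

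Genes named are the 12 with the largest margins in each direction, the leading and the opposing members of each list, members of paralog families, the 10 most variable genes in brain, Gfap, Gabra6 and Terf2ip. Others, such as Snap25, were named after their values were seen. Members and lists were chosen with earlier results of these data known.

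Tissues with the same replicate number come from the same mouse, which pairs them. The mean correlation of deviations was 0.01 within a mouse (-0.16 to 0.18, 18 pairs) and -0.01 between mice. Alternatives changed the scaling, background correction, filter, threshold, probe choice and blocks, or left out an array. Some genes counted in the lists are not reported here by name.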

Additional observations from a re-analysis of the deposited data

How the results depend on the processing

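The number of genes higher and lower in brain than in each other tissue stayed within 1.5 times of 2707 and 2271 under all settings tried, except for the lower genes under other thresholds. Without a minimum difference 4052 genes were lower, and with a minimum of 2 log2 666 were lower. Leaving out 1 array gave 2621 to 2705 higher and 2132 to 2368 lower genes. With the mouse as a replicate block, which pairs tissues of one animal, 2705 genes were higher and 2252 lower, and the 12 leading genes in each direction, Gfap, Gabra6 and Terf2ip neither turned nor gained or lost a call, as was so under each other setting of scaling, filter, probe choice, block or left-out array. With slide as a fixed block the counts were 2358 and 1830, with normexp background correction 2120 and 2195, and without the filter on dim probes 2702 and 3002. No list changed direction. Genes near the background, such as those detected in brain alone, have only bounds on their folds.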
